A study of Sus scrofa with 6 samples.

Results

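The interferon response and RNA sensing genes of pig muscle were taken as a list of 54 genes chosen by name from what is known of their roles. By their current Ensembl pig symbols, 42 of the 54 were matched to rows of a table of 25322 genes. The other 12 (OAS1, IFNAR1, IFNAR2, IRF8, ISG15, IFIT3, IFI6, CXCL10, BST2, XAF1, RNF213 and LGALS3BP) are not analysed here. The 42 were divided by role into 8 sensors of foreign RNA, 11 genes of signalling and 23 effectors.

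The samples were RNA sequencing libraries of longissimus dorsi, a back muscle, from 6 female Tibetan pigs described as healthy, 1 library per animal. The high altitude group held 3 animals that ranged freely in the Tibetan highland (average 4000 m). The low altitude group held 3 animals from the Chengdu plain (average 500 m), fed daily under experimental conditions and descended from Tibetan pigs bred in the lowland for generations. The sources used here do not give age, litter or time of sampling. Altitude, husbandry, place and line differ together between the groups and cannot be told apart.

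Cells detect viral RNA with receptors such as RIG-I (gene RIGI) and MDA5 (gene IFIH1), which signal through the mitochondrial adaptor MAVS to the factors IRF3 and IRF7 and so to the interferon genes. Secreted type I interferon binds its receptor, whose kinases JAK1 and TYK2 activate a complex that holds STAT2 and IRF9. That complex switches on a shared set of effector genes that block viral replication, and also the sensors themselves. Interferon gamma, made by T cells and natural killer cells, is the stronger inducer of IRF1 and the guanylate-binding proteins.

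Values are FPKM, which divides the fragments of a gene by its length and by the mapped fragments of the library, so levels can be set side by side between genes. Absolute depth is unknown from these values. The spacing of values under an FPKM of 0.15 gave relative depths from 0.856 to 1.22, and FPKM totals ran from 506611 to 571855. Genes of the muscle fibre were abundant in every library: MYL11, TNNC2 and DES summed to an FPKM between 27140 and 33543 in the highland and between 29765 and 31611 in the lowland. In bulk muscle, a lower level from fewer cells of a type cannot be told apart from less RNA per cell.

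Low altitude animal 3 had the highest value of the 6 libraries in 30 of the 34 members tested, where it had the highest value in 16.0% of all 10005 genes tested. In low altitude animal 1 the sensors and many effectors were also above the highland range, and in low altitude animal 2 most members were within or below it. Of the 34, 24 were above all 3 high altitude animals in both low altitude animals 1 and 3, against 15.6% of all genes tested. In 17 of those 24 low altitude animal 2 was not above them, a pattern held by 4.3% of all genes. A gene was tested where 3 or more of the 6 libraries reached an FPKM of 1. The filter let 9 of the 34 through only with the help of low altitude libraries, so these counts describe the members that passed and are no support for a difference. Over the 42 members with a row, filtered or not, low altitude animal 3 was above all 3 high altitude animals in 37, low altitude animal 1 in 28 and low altitude animal 2 in 10. Over all genes tested these shares were 27.8, 25.5 and 32.5%, but that set holds no gene under the filter and the 42 members do. Of the 34 tested members, the counts for low altitude animals 3, 1 and 2 were 31, 24 and 8 (91.2, 70.6 and 23.5%). For low altitude animal 2 the share of the members was the lower one.

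**Figure D1:**
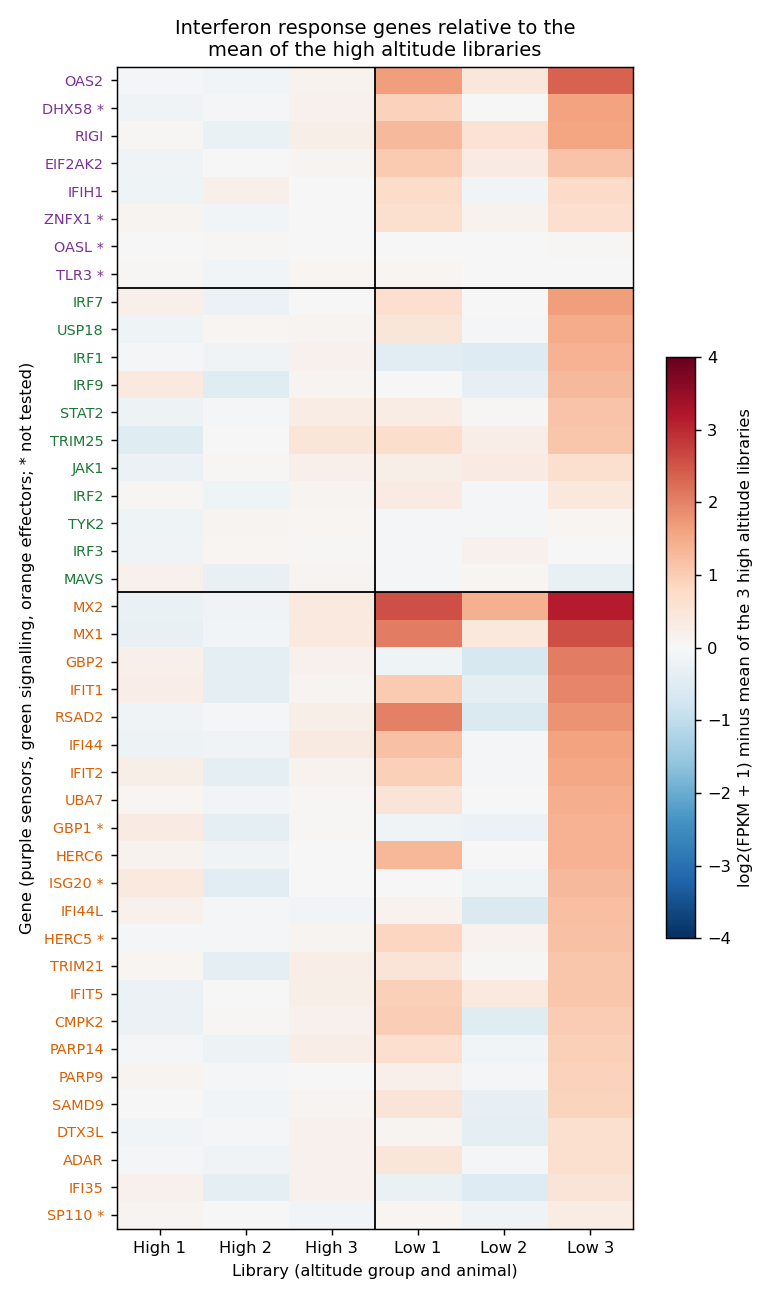
Each row is 1 of the 42 members with a row in the table and each column 1 animal. Colour is the log2(FPKM + 1) of the animal minus the mean of the 3 high altitude animals, red above and blue below, with genes ordered within each role by low altitude animal 3. The low altitude 3 column is above the highland mean in 41 of 42 rows, the low altitude 1 column in 34 of 42 rows, and the low altitude 2 column is above the highland mean in 14 of 42. Over all genes tested, which leaves out genes under the filter, these shares were 53.4, 51.7 and 66.1%.

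Among the sensors, RIGI, OAS2 and EIF2AK2 were higher in each low altitude animal than in each high altitude animal. RIGI (ENSSSCG00000030408), the helicase that recognises short viral RNA, was at an FPKM of 0.795, 0.445 and 1.07 in high altitude animals 1, 2 and 3 and at 3.35, 1.64 and 4.19 in low altitude animals 1, 2 and 3. The groups did not overlap, and the means were 0.772 ± 0.315 (SD, n = 3) and 3.06 ± 1.30, 3.96-fold higher at low altitude. On the log2(FPKM + 1) scale, as low minus high altitude, the log2 fold change was 1.16 (SE 0.27). That scale understates the change of genes at low levels. It did not pass the threshold of 0.05 over all genes (limma, Benjamini-Hochberg adjusted p = 0.263).

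OAS2 (ENSSSCG00000009881), a synthetase whose oligoadenylate product activates an RNA-degrading nuclease, was the most abundant sensor. Its FPKM was 2.14, 2.04 and 2.62 in the highland and 9.28, 3.49 and 15.8 in the lowland, 4.2-fold higher by the means. The 3 highland animals were close together, and low altitude animal 2 lay nearer to them than to its own group. The log2 fold change was 1.50 (SE 0.43, limma, Benjamini-Hochberg adjusted p = 0.360). EIF2AK2 (ENSSSCG00000008496), the kinase PKR that halts translation when it binds double-stranded RNA, was at 0.898, 1.15 and 1.29 in the highland and 3.31, 1.63 and 3.65 in the lowland. The groups did not overlap and the means differed 2.57-fold, with a log2 fold change of 0.83 (SE 0.23, limma, Benjamini-Hochberg adjusted p = 0.332).

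IFIH1, which recognises long double-stranded RNA, did not separate the groups. It was at 1.01, 1.62 and 1.23 in the highland and 2.79, 1.11 and 2.85 in the lowland, so animals 1 and 3 of the low altitude group were above and animal 2 within the highland range (log2 fold change 0.46, SE 0.26, limma, Benjamini-Hochberg adjusted p = 0.621). The remaining 4 sensors lay under the filter and were not tested. DHX58, a helicase that modulates RIG-I and MDA5, was at 0.335, 0.439 and 0.662 in the highland and 1.77, 0.446 and 3.45 in the lowland, and so showed the division of the low altitude animals that IFIH1 showed. ZNFX1, a helicase that binds double-stranded RNA at mitochondria, was at 0.355 to 0.572 in the highland and 0.614 to 1.33 in the lowland. TLR3, the endosomal receptor for double-stranded RNA, was at 0.633 to 0.848 and 0.730 to 0.854, with overlapping ranges. OASL was listed at 0 in 4 libraries and at no more than 0.0535 in the others.

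In signalling, the receptor kinase JAK1 and the adaptor MAVS had the highest levels. MAVS (ENSSSCG00000007143) was at 15.4, 10.8 and 14.8 in the highland and 12.6, 14.3 and 10.7 in the lowland, with overlapping groups (log2 fold change −0.11, SE 0.18, limma, Benjamini-Hochberg adjusted p = 0.894). JAK1 (ENSSSCG00000003809) was the most abundant member, at 18.9, 23.1 and 25.7 in the highland and 26.2, 28.2 and 35.3 in the lowland. Its groups did not overlap, by a narrow margin, and its means of 22.5 ± 3.42 and 29.9 ± 4.79 differed 1.33-fold (log2 fold change 0.39, SE 0.18, limma, Benjamini-Hochberg adjusted p = 0.554). TYK2, the partner kinase, was at 4.16, 5.37 and 5.14 in the highland and 4.59, 4.72 and 5.20 in the lowland. Its estimate was −0.01 (SE 0.14, limma, Benjamini-Hochberg adjusted p = 0.990) and 0.05 with each library rescaled to a common FPKM total, so no direction is given. IRF3, the factor that RNA sensing activates directly, was at 4.61 to 5.53 and 4.86 to 6.03.

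The interferon-induced part of signalling was high in low altitude animal 3. IRF9 (ENSSSCG00000002002), the DNA-binding partner of STAT2, was at 9.75, 4.88 and 8.0 in the highland and 7.30, 5.54 and 19.2 in the lowland. Low altitude animal 3 was the highest by a wide margin and the other 2 were within the highland range (log2 fold change 0.32, SE 0.43, limma, Benjamini-Hochberg adjusted p = 0.867; −0.17 without low altitude animal 3). STAT2 was at 2.53 to 4.10 in the highland and 4.05, 3.24 and 7.99 in the lowland. IRF7, which amplifies interferon production, was at 1.97, 1.17 and 1.62 in the highland and 3.09, 1.52 and 7.11 in the lowland, and USP18, which shuts down signalling at the interferon receptor, at 1.78 to 2.38 and at 3.41, 2.07 and 7.71. In both genes low altitude animals 1 and 3 were above the highland range, with animal 3 the higher. TRIM25, the ubiquitin ligase that activates RIG-I, ranged from 0.544 to 2.08 at high and from 1.63 to 3.73 at low altitude, and IRF2 from 5.24 to 6.60 and from 5.66 to 8.45.

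**Figure D2:**
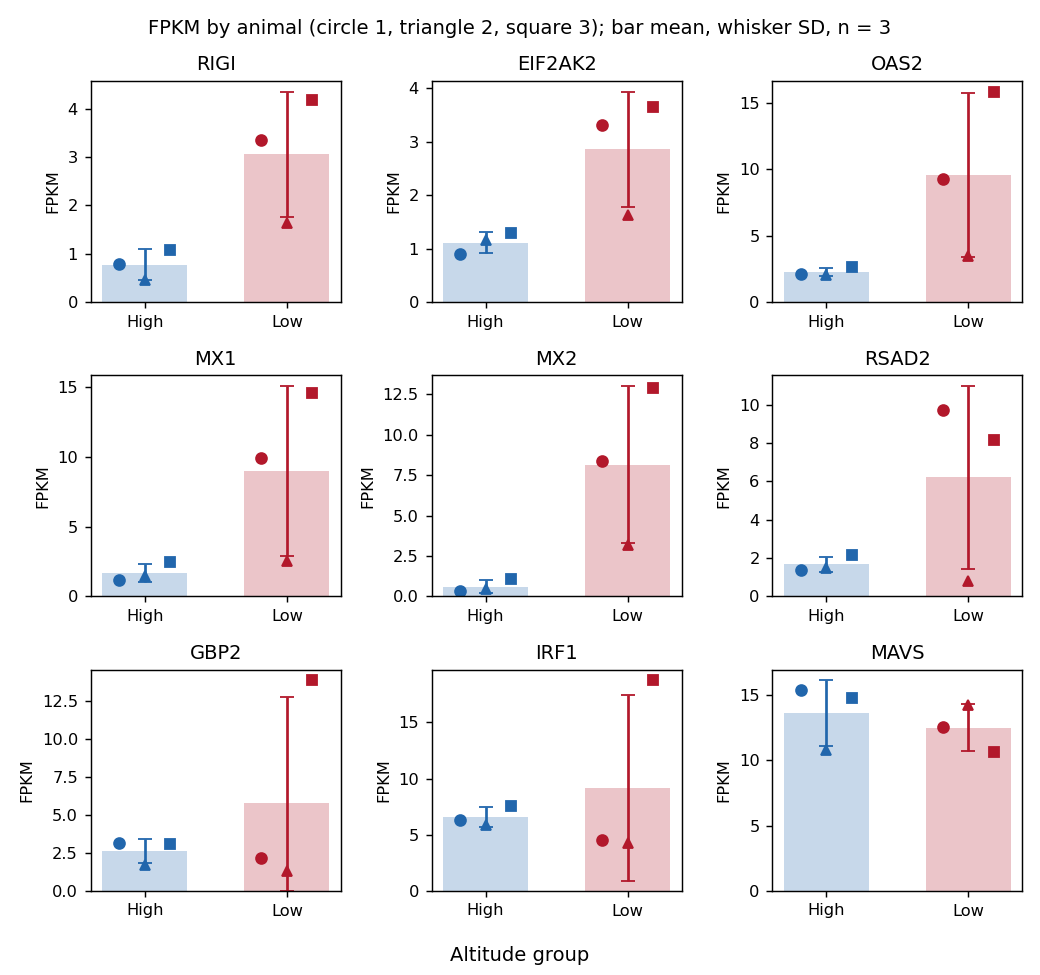
FPKM of 9 members on linear axes that start at 0, 1 point per animal (circle animal 1, triangle animal 2, square animal 3), with bars for the group mean and whiskers for 1 SD (n = 3, cut at 0 for GBP2). In RIGI, EIF2AK2, OAS2, MX1 and MX2 all low altitude points lie above the highland points, with the triangle lowest. In GBP2 and IRF1 the square alone stands above, and in MAVS the groups overlap.

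The largest difference among the effectors was in MX2. MX2 (ENSSSCG00000012076), a dynamin-like GTPase that blocks incoming viral particles, was at an FPKM of 0.312, 0.431 and 1.07 in the highland and 8.35, 3.21 and 12.9 in the lowland. The lowest low altitude animal was above the highest highland animal, and the means of 0.604 ± 0.407 and 8.16 ± 4.86 differed 13.5-fold. Its log2 fold change of 2.38 (SE 0.42) had the smallest adjusted p of the members, which was above the threshold (limma, Benjamini-Hochberg adjusted p = 0.136). Without low altitude animal 2 it passed, at 2.86 (limma, Benjamini-Hochberg adjusted p = 0.0418). Its neighbour in the family, MX1, was at 1.17, 1.45 and 2.45 in the highland and 9.96, 2.52 and 14.6 in the lowland, 5.34-fold higher by the means. Low altitude animal 2 was only just above the highest highland animal (log2 fold change 1.68, SE 0.52, limma, Benjamini-Hochberg adjusted p = 0.383; 0.0498 without low altitude animal 2). How reads were divided between MX1 and MX2, and among the IFIT, GBP, HERC and IFI44 relatives, is not stated, so single members of these families are uncertain.

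RSAD2 and CMPK2 separated low altitude animal 2 from animals 1 and 3 most plainly. RSAD2, or viperin, turns a nucleotide into a chain terminator for viral polymerases, and CMPK2 is a mitochondrial nucleotide kinase. RSAD2 was at 1.39, 1.49 and 2.14 in the highland and 9.70, 0.792 and 8.13 in the lowland. Low altitude animal 2 was below every highland animal while animals 1 and 3 were 5.81-fold and 4.87-fold above the highland mean. The log2 fold change was 1.08 (SE 0.63, limma, Benjamini-Hochberg adjusted p = 0.650) and 1.90 without low altitude animal 2 (limma, Benjamini-Hochberg adjusted p = 0.0432). CMPK2 was at 0.891, 1.29 and 1.47 in the highland and 3.38, 0.578 and 3.46 in the lowland, with the same animal lowest.

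The IFIT proteins bind viral RNA and block its translation. IFIT5 (ENSSSCG00000010454) was at 1.96, 2.51 and 3.06 in the highland and 5.68, 3.59 and 6.47 in the lowland, with groups that did not overlap and a 2.09-fold difference of the means (log2 fold change 0.81, SE 0.22, limma, Benjamini-Hochberg adjusted p = 0.313). IFIT1 was at 2.54, 1.29 and 2.18 in the highland and 5.16, 1.28 and 10.5 in the lowland, and IFIT2 at 2.81, 1.45 and 2.56 and at 5.17, 2.11 and 8.40. In IFIT1 and IFIT2 low altitude animals 1 and 3 were above and animal 2 was within or below the highland range. IFI44, an interferon-induced protein of unclear action, was at 1.92 to 3.34 in the highland and 6.55, 2.22 and 9.24 in the lowland.

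Genes of ISG15 conjugation, which attaches a ubiquitin-like tag to new proteins, followed a like pattern. HERC6 (ENSSSCG00000021712), a ligase for the tag, was at 3.86, 3.03 and 3.44 in the highland and 10.1, 3.36 and 10.6 in the lowland (log2 fold change 0.89, SE 0.37, limma, Benjamini-Hochberg adjusted p = 0.506). Low altitude animals 1 and 3 were close to each other and low altitude animal 2 was within the highland range. UBA7 (ENSSSCG00000011393), the activating enzyme of the tag, was at 4.88, 4.07 and 4.66 in the highland and 6.90, 4.45 and 14.0 in the lowland (log2 fold change 0.65, SE 0.34, limma, Benjamini-Hochberg adjusted p = 0.608). Here low altitude animal 3 was far above low altitude animal 1. HERC5, another ligase of this family, lay under the filter, at 0.0965 to 0.249 in the highland and 1.10, 0.284 and 1.63 in the lowland.

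A further set of members was above the highland range in low altitude animal 3 alone: IFI44L, IFI35, GBP2 and DTX3L among the tested effectors, and STAT2, IRF1 and IRF9 in signalling. These 7 of 34 are 20.6%, and 6.55% of all genes tested had that pattern. GBP2, a guanylate-binding protein, was at 3.12, 1.72 and 3.05 in the highland and 2.13, 1.29 and 13.8 in the lowland. Low altitude animal 3 was 5.25-fold above the highland mean and low altitude animal 1 was at 0.811 of it. IRF1 was at 6.35, 5.86 and 7.56 in the highland and 4.54, 4.26 and 18.7 in the lowland, so low altitude animals 1 and 2 were below every highland animal. GBP1, under the filter, was at 0.211 to 1.00 in the highland and 0.431, 0.339 and 3.20 in the lowland. IFI44L (ENSSSCG00000027660), the most abundant effector, was at 7.94, 6.82 and 6.35 in the highland and 7.78, 4.38 and 17.3 in the lowland. Its estimate was 0.25 (SE 0.40, limma, Benjamini-Hochberg adjusted p = 0.887) and −0.22 without low altitude animal 3. IFI35 was at 3.20, 1.95 and 3.28 and at 2.14, 1.61 and 4.39, with an estimate of −0.09 (SE 0.29, limma, Benjamini-Hochberg adjusted p = 0.951) that changed sign with single libraries left out. ISG20, a nuclease of viral RNA under the filter, was at 0 to 0.762 in the highland and 0.355, 0.172 and 2.26 in the lowland.

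**Figure D3:**
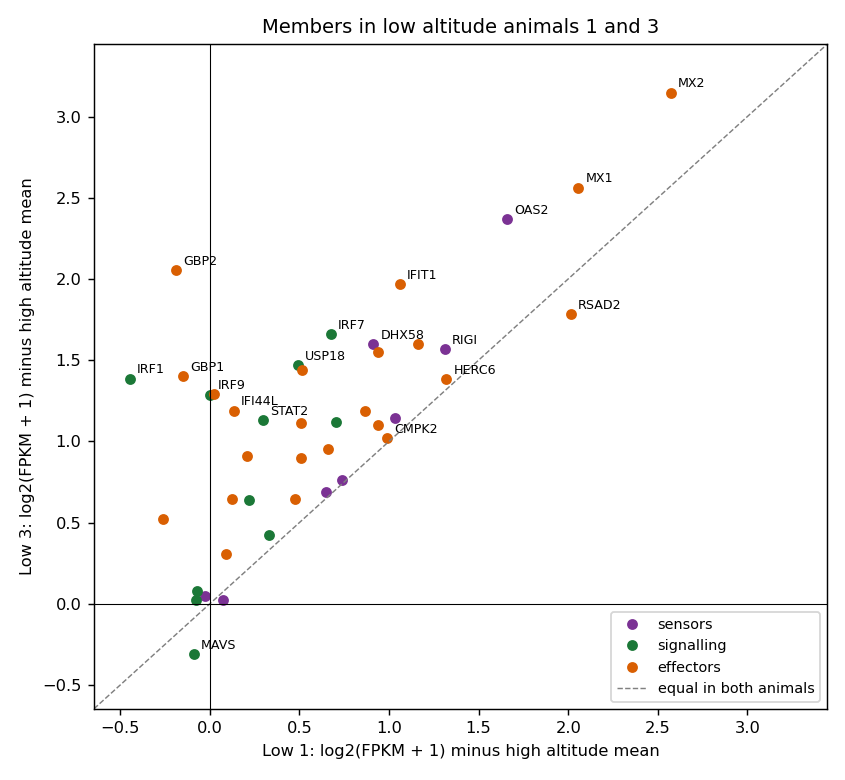
Each point is 1 of the 42 members. The x axis is low altitude animal 1 and the y axis low altitude animal 3, each as log2(FPKM + 1) minus the mean of the high altitude animals, and the dashed line marks equal values. MX2, MX1, OAS2, RSAD2 and RIGI are far above 0 on both axes, whereas GBP2, GBP1, IRF1 and IRF9 are far above 0 only on the y axis.

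Of the remaining effectors, ADAR, which edits double-stranded RNA, was at 1.84 to 2.53 in the highland and 3.32, 1.91 and 3.84 in the lowland. PARP14, a mono-ADP-ribosyltransferase, was at 0.766 to 1.46 and at 2.23, 0.876 and 2.95, and TRIM21, a cytosolic antibody receptor, at 0.638 to 1.51 and at 1.96, 1.15 and 3.5. PARP9 was at 0.943 to 1.25 and 0.948 to 2.89, and its partner DTX3L, a ubiquitin ligase, at 0.822 to 1.21 and 0.525 to 2.08. SAMD9, an inhibitor of viral translation, was at 2.14 to 2.65 and 1.69 to 5.30, and SP110, a nuclear body protein under the filter, at 0.575 to 0.823 and 0.518 to 1.08. In PARP9, SAMD9, ADAR, PARP14 and TRIM21 low altitude animals 1 and 3 were above the highland range. Low altitude animal 2 lay within or below it in all 5.

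The comparison between altitudes asked which members differ beyond the spread between animals. In limma with Benjamini-Hochberg adjustment over 10005 genes, 0 of the 34 tested members passed, and 7 had an unadjusted p under 0.05, all higher at low altitude (RIGI, EIF2AK2, OAS2, MX1, MX2, IFIT5 and HERC6). Over all genes tested 0.23% passed, 16 genes (0.16%) higher and 7 (0.07%) lower (26 and 6 with each library rescaled to a common FPKM total), while 6.34% had an unadjusted p under 0.05 and a higher level at low altitude, and 3.08% a lower one. The estimate was above 0 in 31 of the 34, against 57.7% of all genes. The groups did not overlap, with low altitude higher, in 7 of 34 (RIGI, EIF2AK2, OAS2, JAK1, MX1, MX2 and IFIT5), against 11.3% of all genes tested, and in 0 of 34 with low altitude lower, against 4.8%. RIGI, EIF2AK2 and MX2 are among the 9 members that passed the filter only with low altitude libraries. The counts of direction and overlap therefore describe the members that passed and are no support for a difference. With no filter, 9 of 42 members were without overlap and higher at low altitude, against 8.42% of all genes. With 3 animals per group an exact permutation test of a single gene cannot give a two-sided p under 0.1. Leaving out low altitude animal 2 raised the count that passed from 0 to 3 (MX1, MX2 and RSAD2) and the count without overlap, all with low altitude higher, from 7 to 24. Over all genes tested in that fit, 0.21% passed and 15.6% were without overlap with low altitude higher. Low altitude animal 2 was the lowest of its group in 30 of the 34 members, against 23.2% of all genes. Leaving it out therefore widens the differences of most members, and the raised counts are no support for a difference. Over all alternatives the limma, Benjamini-Hochberg adjusted p ran up to 0.783 for MX1, 0.396 for MX2 and 0.951 for RSAD2.

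**Figure D4:**
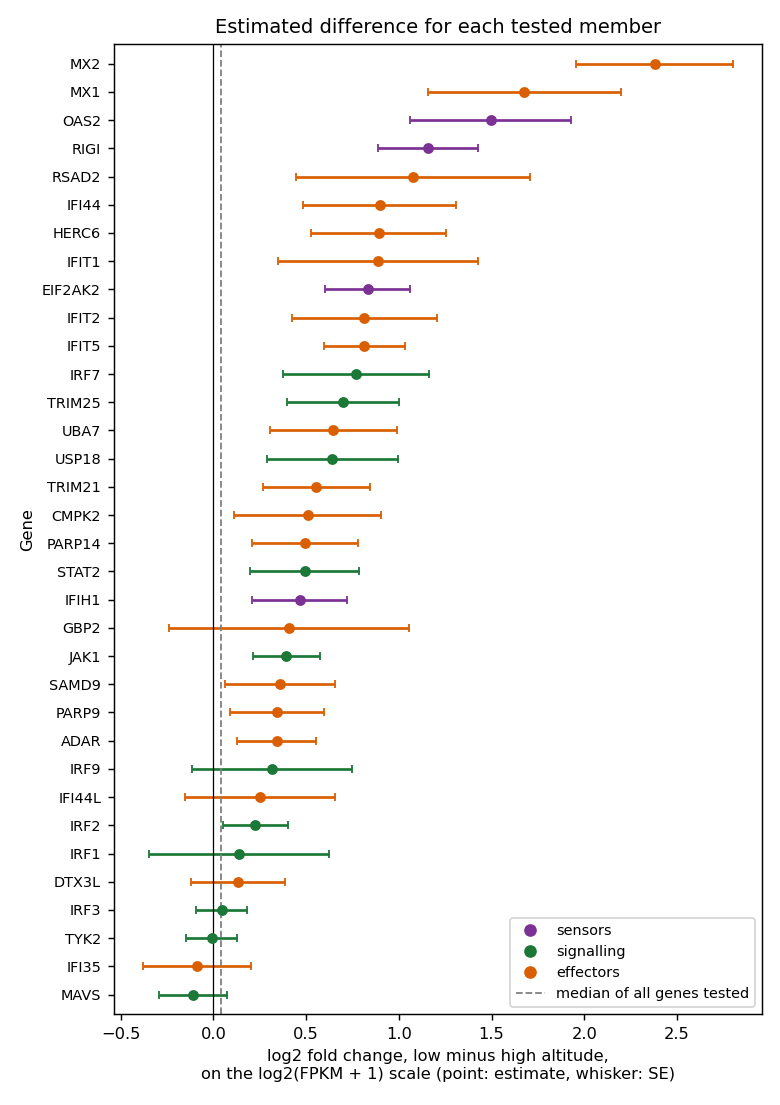
The estimated log2 fold change of each of the 34 tested members, low minus high altitude on the log2(FPKM + 1) scale, with whiskers for the SE and colours for the role. The dashed line is the median of all genes tested, 0.04. MX2, MX1, OAS2 and RIGI lie farthest to the right, and MAVS, IFI35, TYK2 and IRF3 lie near 0.

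By role, the median log2 fold change was 0.99 over the 4 tested sensors, 0.32 over the 11 signalling genes and 0.55 over the 19 tested effectors, beside 0.04 over all genes tested. The medians rest on the animals named above. Without low altitude animal 2 the effector median was 0.98 and without low altitude animal 3 it was 0.27. The signalling median was 0.13 without low altitude animal 3 and 0.14 without high altitude animal 2. The sensor median was 0.66 with no filter, over all 8 sensors with a row. Of the tested sensors, RIGI and EIF2AK2 passed the filter only with low altitude libraries. TLR3, OASL and DHX58, with overlapping groups, and ZNFX1, without overlap, lay under the filter. The role medians therefore describe the members that passed and are no support for a difference. Within each high altitude animal, the signalling genes had the highest median level of the 3 roles, at a median FPKM of 4.61 to 5.43, followed by the effectors at 1.49 to 2.53 and the sensors at 0.952 to 1.38. In low altitude animal 2 the order was the same, at 4.72, 1.69 and 1.63. In low altitude animals 1 and 3 the effectors (5.16 and 8.13) were level with or above the signalling genes (4.59 and 7.99), and the sensors were at 3.33 and 3.92.

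**Figure D5:**
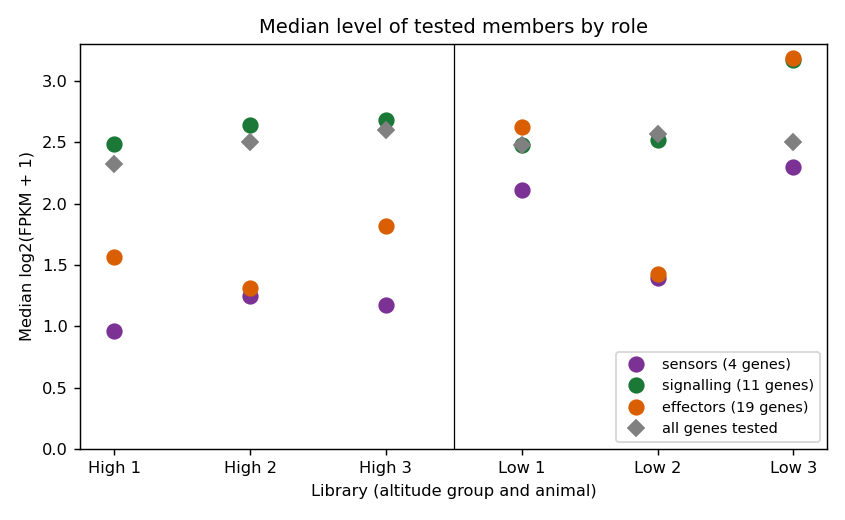
Median log2(FPKM + 1) of the tested sensors, signalling genes and effectors in each animal, with the median of all genes tested as grey diamonds. Effectors are well below signalling genes in the 3 highland animals and in low altitude animal 2, and reach or pass them in low altitude animals 1 and 3. The grey diamonds differ far less between animals.

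The spread among the low altitude animals was the other feature of the members. The SD of log2(FPKM + 1) was wider among the low than among the high altitude animals in 31 of the 34 members, against 34.7% of all genes tested. Its median over the members was 0.60 at low and 0.21 at high altitude, beside 0.16 and 0.23 over all genes. That scale also narrows the spread of genes at low levels. By the median FPKM, the members were lower than all genes tested in each highland animal. A higher level at low altitude can thus by itself widen the SD there, and its part in the wider SD was not tested. The filter let 9 of the 34 through only with the help of low altitude libraries. The counts of spread and order therefore describe the members that passed and are no support for a difference. Of the 42 members with a row, the SD was wider at low altitude in 37. The 3 low altitude animals took the order 3, 1, 2 from highest to lowest in 29 of 34 members and in 11.5% of all genes. The exceptions were RSAD2, MAVS, IRF3, JAK1 and TYK2, of which all but RSAD2 belong to the adaptor, kinase and primary factor part of the pathway. Relative to the highland mean, the median member was higher by 1.14 in low altitude animal 3 and by 0.51 in animal 1, and differed by −0.04 in animal 2, on the log2(FPKM + 1) scale. Over all genes tested these medians were 0.02, 0.01 and 0.10.

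Other genes of the pathway were read from 5 lists of 73 genes, of which 42 had a row and 23 were tested. In limma 0 of the 23 passed, and 1 had an unadjusted p under 0.05, the nucleic acid sensor ZBP1. ZBP1 was at 0.320, 1.08 and 1.62 in the highland and 3.08, 1.50 and 3.42 in the lowland (log2 fold change 0.88, SE 0.31, limma, Benjamini-Hochberg adjusted p = 0.442), again with low altitude animals 1 and 3 above the highland range. STING1, the adaptor for DNA sensing, was at 4.13, 5.32 and 4.12 in the highland and 2.56, 2.48 and 4.32 in the lowland, with low altitude animals 1 and 2 below the highland range (log2 fold change −0.44, SE 0.20, limma, Benjamini-Hochberg adjusted p = 0.551). Of 4 tested adaptors and kinases 0 passed, with IRF5, a factor that drives inflammatory genes, at 1.57 to 1.75 and 1.70 to 2.57 and TANK, an adaptor of the kinase TBK1, at 2.86 to 3.87 and 2.67 to 3.03. Of 7 genes of interferon and receptor signalling 0 passed, among them the gamma receptor chain IFNGR1 (7.10 to 11.2 and 6.79 to 8.60) and the feedback inhibitor SOCS1 (1.12 to 1.77 and 0.832 to 2.98). Of 9 other interferon-induced effectors 0 passed, with the ubiquitin ligase TRIM26 at 1.65 to 3.05 and 2.82 to 3.65 and the RNA-degrading N4BP1 at 4.33 to 5.14 and 4.90 to 5.85. In antigen presentation the single tested gene, the peptide-loading protein TAPBP, was at 9.32 to 11.5 and 8.18 to 17.6. IFNB1, which encodes interferon beta, was listed at 0 in all 6 libraries.

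IDO1 and CXCL11, of the other interferon-induced effectors, were high in low altitude animal 3 and not in animal 1. These and the genes that follow were picked from the 5 lists after their values were seen. The tryptophan-degrading enzyme IDO1, under the filter, was at 0.145 to 0.703 in the highland and 0.254, 0.0705 and 4.13 in the lowland, and the chemokine CXCL11, also under the filter, at 0.131 to 1.22 and at 0.303, 0.118 and 3.60. UBE2L6, the conjugating enzyme for ISG15, was instead above the highland range (6.19 to 8.96) in both low altitude animals 1 and 3, at 12.1 and 22.8, and at 4.70 in animal 2. DDX60, a helicase that promotes RIG-I signalling, was at 0.233 to 0.560 in the highland and 1.43, 0.254 and 3.35 in the lowland. Not every gene of the lists was highest in low altitude animal 3. Among the tested genes, STING1, TANK, IFNGR1 and RNF135 had their highest value in a highland animal, and N4BP1 in low altitude animal 1. TAP1 and PSMB8, of antigen presentation, were near 0 in every library. Their highest values were in highland animals, 0.241 and 0.0534. PSMB9, of the same list, was listed at 0 in every library. IFNG, which encodes interferon gamma, and CXCL9 were not matched to a row, and a part of interferon gamma was not tested.

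Markers of leukocytes, which respond to interferon as muscle cells do, were summed in each library. For 6 macrophage markers the summed FPKM was 62.6 to 84.6 at high altitude and 47.2, 58.4 and 106 in low altitude animals 1, 2 and 3. For 8 T and B lymphocyte markers it was 10.4 to 12.3 in the highland and 5.29, 6.36 and 13.3 in the lowland, and for 4 natural killer cell markers 2.88 to 3.72 and 2.09, 2.55 and 4.84. On these 3 sums low altitude animal 3 was the highest and low altitude animal 1 the lowest, which did not hold for the neutrophil markers given below. The sums rest on few genes: in low altitude animal 3, C1QA gave 60.8 of the macrophage sum and NKG7 gave 4.47 of the natural killer cell sum. Other markers were not highest there. The T cell receptor subunit CD3D was at 1.87 to 2.82 in the highland and at 0.991, 1.07 and 1.07 in the lowland, lower in every low altitude animal (limma, Benjamini-Hochberg adjusted p = 0.238). TYROBP, CSF1R, CD4, MS4A1 and LCK also had their highest value in a highland animal. For 3 neutrophil markers, all under the filter, the sums were 0.265 to 0.749 in the highland and 1.21, 1.34 and 2.76 in the lowland. Each low altitude animal, animal 1 included, was thus above every highland animal on the neutrophil sum. S100A8 gave most of it, at 0.803, 1.24 and 1.97 in low altitude animals 1, 2 and 3. It alone separated the groups, as 8.42% of all genes did with no filter and low altitude higher. CSF3R overlapped, and MMP8 was above 0 only in low altitude animal 1, at 0.0390. CSF1R, CD4, CD79B, MS4A1, PRF1, NCR1, CSF3R and MMP8 did not reach an FPKM of 1 in any library, and KLRD1 was listed at 0 in all 6. For 5 endothelial markers the sums were 39.5 to 64.3 in the highland and 52.1 to 67.6 in the lowland, and for 5 fibroblast markers 246 to 958 and 688 to 1067, with overlapping groups. The endothelial KDR was lower in every low altitude animal, at 5.74, 7.69 and 7.22 in the highland and 1.90, 4.75 and 1.97 in the lowland (limma, Benjamini-Hochberg adjusted p = 0.303). PECAM1, TEK, ESAM and EGFL7 overlapped. The part of leukocyte content in the values of the low altitude animals was not tested.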

How the data were processed

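The authors deposited FPKM values as 1 table with a column per animal, and columns were matched to animals by title. TopHat2 2.0.11 and Cufflinks 2.2.1 are named, without a role, per the submitters' processing notes. The sources used here give no genome build, annotation or filter, and coordinates are left out. A table of IDs and names gave 11804 IDs a symbol, and RIGI was allowed its older name. Library preparation was strand-specific per the labels' protocols, but whether the counting used strand is not stated.

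The 10005 genes that reached an FPKM of 1 in 3 or more of 6 libraries entered a fit of log2(FPKM + 1) by limma 3.58.1 (R 4.3.3) with a mean-dependent trend, two-sided, low minus high altitude, without the replicate numbers. P-values were Benjamini-Hochberg adjusted over all genes tested, with a threshold of 0.05, and the fit was tested on simulated data. Alternatives changed the pseudocount, the filter, the scaling between libraries or the limma settings, added the replicate numbers, or left out each animal in turn. Folds are ratios of mean FPKM. In 107 genes, none of them members, a library was at 0 and another at an FPKM of 5 or more, so an exact 0 can be a failed estimate. Members and lists were chosen with earlier results of these data known. Values by animal were to be given for members that passed, the 5 smallest unadjusted p in each direction, and the 3 most abundant per role, and for 2 genes of each pathway list. Other members were described after their values were seen. Sequences are not used here. The values of 1 pathway gene are not reported here, though the counts over its list include it. Python 3.11.15 and matplotlib 3.10.9 made the figures.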

Additional observations from a re-analysis of the deposited data

How the results depend on the processing

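The count of members that passed was 0 under each alternative except leaving out low altitude animal 2, and ranged from 0 to 3 over the 6 fits that left out 1 animal. With a replicate block (the numbers 1 to 3 as a term) it was also 0, with a lowest adjusted p of 0.0765 (MX2, limma, Benjamini-Hochberg) and 15 members at an unadjusted p under 0.05. Deviations from the group means correlated at −0.0154, 0.0949 and −0.141 between same-numbered animals, and at −0.151 to 0.161 between the others. These values cannot decide whether the numbers pair animals, since no known pair serves as a reference. The count over all genes, 23, was 6 with no filter, 9 with scaling by median of ratios, 10 after quantile normalization, 38 with array weights and 19 with the replicate block, and 4 to 21 with 1 animal left out. Members without overlap, 7, were 3 with a mean FPKM of at least 5, which kept 11 members, and 7 to 24 with 1 animal left out. Over all genes the share without overlap in either direction was 16.1%, then 16.7% at that filter, 26.9% without low altitude animal 2 and 22.8 to 32.3% with any 1 animal left out. The sensor median, 0.99, was 1.51 with a pseudocount of 0.1 and 1.50 at a mean FPKM of at least 5, but 0.66 with no filter. With 1 animal left out it was 0.81 to 1.26, the signalling median (0.32) 0.13 to 0.47 and the effector median (0.55) 0.27 to 0.98; the signalling median was 0.18 at a mean FPKM of at least 5. Estimates near 0 changed sign: TYK2 to 0.053 with a common total and −0.10 to 0.050 with 1 animal left out, IFI35 to 0.0143 with array weights and −0.39 to 0.13, IRF9 −0.17 to 0.64 and IFI44L −0.22 to 0.66. MX2 reached 2.86 without low altitude animal 2. Estimates were above 0 in 26 of 34 members without low altitude animal 3 and in 30 to 33 under the other fits that held all 34. Except where fewer genes or animals entered the fit, the cause was not tested. Low FPKM limits the members, most of which were under an FPKM of 5 in the highland.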
